A study of Oryctolagus cuniculus with 34 samples.

Results

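The 6 genes described here encode enzymes of carbon metabolism in rabbit supraspinatus, a muscle of the rotator cuff: PCK2, TIGAR, IDH1, DLD, OGDH and GYS1. They are 6 of 23669 genes in the count table and 6 of the 12937 genes that passed the expression filter. They were chosen with their CPM, a gene's count scaled to the total of its library, in repaired left and control right muscle at each week in view, so those differences are given as description only and no test of them is read. Supraspinatus of 17 female New Zealand White rabbits was sequenced as bulk RNA, with 1 library per shoulder. The paper's methods give the rabbits as about 6 months old, and its discussion gives a higher age at the end of the experiment. Age at harvest, not given by group, cannot be told apart from the weeks after repair. The tendon of the left supraspinatus was cut, left torn for 8 weeks and then reattached by open repair. The right muscle of the same rabbit was the control, described as unoperated in the methods but, in the sample labels, as given a skin cut only. Muscle was taken 1 week (4 rabbits), 2 weeks (5), 4 weeks (4) or 8 weeks (4) after repair, always from the posterior lateral region, which the study chose as the most affected one. Every repaired muscle had therefore also been torn for 8 weeks, and no group with a torn and unrepaired tendon was analysed here, so tear and repair cannot be told apart.

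The study filtered out 1 repair sample of the 8-week group at read quality control, without giving its rabbit. Here the repair library of rabbit 3, which had the lowest total of all 34 (8756033 expected counts), is left out, which leaves 33 libraries and 3 repaired muscles at 8 weeks. Totals of these ran from 9220035 to 28395188 expected counts per library. Libraries of weeks 1 and 8 carry one title series (median 19343431, n = 15) and those of weeks 2 and 4 another (median 10625163, n = 18), so series and weeks cannot be told apart, and effects of repair were compared between weeks only within a series. All 5 muscle fibre markers measured here (TNNT3, MYOM2, ATP2A1, DES and CACNA1S) were read in every library. In bulk muscle, fewer cells of a type and less RNA per cell cannot be told apart.

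Muscle burns glucose through glycolysis, stores it as glycogen and oxidises pyruvate in the mitochondrial citric acid cycle. GYS1 is the muscle glycogen synthase, OGDH the first enzyme of the alpha-ketoglutarate dehydrogenase complex of the citric acid cycle, and DLD the dihydrolipoamide dehydrogenase that this complex shares with the pyruvate and branched-chain keto acid complexes and the glycine cleavage system. TIGAR removes the sugar phosphate that activates phosphofructokinase and so favours the pentose phosphate pathway, IDH1 makes NADPH in the cytosol while oxidising isocitrate, and PCK2, the mitochondrial phosphoenolpyruvate carboxykinase, draws oxaloacetate out of the cycle.

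PCK2 (ENSOCUG00000002836) had the largest log2 fold change of the 6 genes, of either sign, at every week. Its CPM was higher in the repaired than in the control muscle of all 16 rabbits with both libraries. It rested on 11 to 109 expected counts in a control library and 41 to 1577 in a repair library. At 1 week repaired muscle read 23.3 CPM in rabbit 5, 57.4 in rabbit 6, 11.6 in rabbit 7 and 32.5 in rabbit 8. The controls of the same 4 rabbits read 2.14, 3.77, 2.36 and 3.36 CPM. Every repaired muscle was thus above every control, and the log2 fold change was 3.24 ± 0.69 (SE), a fold of 9.45.

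At 2 weeks PCK2 split the repaired muscles. Rabbits 59 and 62 read 19.3 and 18.4 CPM, and rabbits 60, 61 and 64 read 5.76, 3.99 and 4.56. Their controls lay between 1.14 and 2.69 CPM. The groups did not overlap, with a log2 fold change of 2.43 ± 0.94, and without the repair libraries of rabbits 59 and 62 it was 1.53, an alternative added after the values were seen. At 4 weeks rabbits 63, 66 and 67 read 45.7, 40.7 and 47.7 CPM in repaired muscle, and rabbit 68 read 5.09. The 4-week controls were 1.53, 2.92, 5.90 and 3.34 CPM in the same order. Rabbit 68 lay inside the control range, so the groups overlapped although the fitted log2 fold change was 3.07 ± 0.82. At 8 weeks repaired muscle read 8.36 CPM in rabbit 1, 15.5 in rabbit 2 and 12.4 in rabbit 4, all above the 4 controls at 2.77 to 5.69 CPM. The log2 fold change was 1.62 ± 0.68. The ratio of the 2 sides of a rabbit had a median of 10.3 at 1 week, 3.22 at 2, 11.02 at 4 and 2.71 at 8 weeks.

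IDH1 (ENSOCUG00000002671), the cytosolic NADPH-making isocitrate dehydrogenase, was the other member with more RNA in repaired muscle, in 15 of 16 rabbits. At 1 week repaired muscle read 30.5, 48.2, 34.5 and 28.0 CPM in rabbits 5, 6, 7 and 8, above every control (25.2, 24.8, 27.3 and 20.6 CPM). The log2 fold change was 0.50 ± 0.25. At 2 weeks repaired muscle read 73.6, 40.2, 37.04, 43.3 and 27.5 CPM in rabbits 59, 60, 61, 62 and 64, against 30.0, 30.3, 31.6, 21.7 and 22.0 in the controls. Rabbit 59 was highest and rabbit 64 lay inside the control range, with a log2 fold change of 0.65 ± 0.23, which was 0.36 without the repair libraries of rabbits 59 and 62. At 4 weeks the repaired muscles of rabbits 63, 66, 67 and 68 read 68.2, 50.5, 71.3 and 39.7 CPM. The controls read 34.3, 17.6, 31.9 and 34.3 CPM, so the groups did not overlap, with a log2 fold change of 0.96 ± 0.25. At 8 weeks the groups overlapped: repaired muscle read 25.8, 42.6 and 42.9 CPM and controls 26.8 to 34.9, with a log2 fold change of 0.21 ± 0.26. It ran from 0.09 to 0.45 with 1 library of that week left out (the repaired muscles of rabbits 4 and 1), and was -0.27 with all 34 libraries.

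TIGAR (ENSOCUG00000001952), the sugar bisphosphatase that restrains glycolysis, was lower in the repaired muscle of 15 of 16 rabbits. At 2 weeks its repaired muscles were more alike than any other repaired group of the 6 genes (coefficient of variation 6.52%): 9.90, 8.39, 9.14, 9.65 and 9.69 CPM in rabbits 59, 60, 61, 62 and 64 (SD 0.61). The controls read 34.6, 28.8, 21.3, 19.0 and 19.6 CPM. No repaired muscle came near the lowest control, and the log2 fold change was -1.35 ± 0.34. Rabbits 59 and 62 did not stand apart from the other 3 for this gene, and without them the log2 fold change was -1.39.

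At 1 week TIGAR read 17.02, 6.55, 16.4 and 10.8 CPM in the repaired muscles of rabbits 5, 6, 7 and 8 and 29.1, 14.2, 41.2 and 16.7 CPM in their controls. The groups overlapped because the controls themselves ranged widely, but each repaired side was below its own control, at 0.40 to 0.65 of it, and the log2 fold change was -0.97 ± 0.33. At 4 weeks repaired muscle read 21.6, 17.6, 9.89 and 29.4 CPM in rabbits 63, 66, 67 and 68, with controls at 24.3, 12, 20.1 and 37.6. Rabbit 66 was the exception, with 1.47 times its control, and the log2 fold change was -0.28 ± 0.35, or 0.04 without the repaired muscle of rabbit 67 and -0.56 without the control of rabbit 66. At 8 weeks repaired muscle read 30.5, 21.6 and 23.7 CPM and controls 27.7 to 39.5, overlapping, with a log2 fold change of -0.44 ± 0.35.

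DLD (ENSOCUG00000000464), the shared subunit of the keto acid dehydrogenases, was lower in repaired muscle in 13 of 16 rabbits, with the clearest separation at 1 week. Repaired muscle then read 40, 21.6, 28.5 and 30.9 CPM in rabbits 5, 6, 7 and 8, below every control (67.6, 47.5, 65.0 and 48.96 CPM). The log2 fold change was -0.93 ± 0.27. At 2 weeks the repaired muscles of rabbits 59 and 62 read 20.3 and 34.2 CPM, and those of rabbits 60, 61 and 64 read 54.6, 56.0 and 50.4. The controls read 48.8 to 72.4 CPM, so only the first 2 rabbits fell outside the control range. The log2 fold change was -0.53 ± 0.24, and -0.12 without those 2 repair libraries. At 4 weeks repaired muscle read 48.7, 38.6, 43.1 and 80.8 CPM in rabbits 63, 66, 67 and 68, the last being the highest of all 33 libraries, while controls read 63.8, 41.7, 36.5 and 54.02. The log2 fold change was 0.08 ± 0.27, or -0.15 without the repaired muscle of rabbit 68. At 8 weeks, with repaired muscle at 41.8, 59.2 and 36.0 CPM and controls at 47.4 to 64.9, it was -0.31 ± 0.29, and it ran from -0.52 to -0.16 without the repaired muscle of rabbit 2 or 4.

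OGDH (ENSOCUG00000002419), the first enzyme of the alpha-ketoglutarate dehydrogenase complex, was lower in repaired muscle in 14 of 16 rabbits, by less than DLD at 1 week. Repaired muscle then read 683, 466, 511 and 726 CPM in rabbits 5, 6, 7 and 8, and controls 889, 799, 807 and 815. The groups did not overlap, and the log2 fold change was -0.49 ± 0.21. At 2 weeks repaired muscle of rabbits 59 and 62 read 350 and 421 CPM, and that of rabbits 60, 61 and 64 read 780, 495 and 696, against controls between 579 and 768. Rabbit 61 thus joined rabbits 59 and 62 below the control range, and the log2 fold change was -0.33 ± 0.17. Without the repair library of rabbit 59 it was -0.19, and without those of rabbits 59 and 62 it was -0.04. At 4 weeks rabbit 68 read 732 CPM, above every control (559 to 689), and rabbits 63, 66 and 67 read 478, 451 and 565. The log2 fold change was -0.17 ± 0.19, and -0.32 without the repaired muscle of rabbit 68 or -0.08 without that of rabbit 66. At 8 weeks the 3 repaired muscles (508, 616 and 629 CPM) lay below the 4 controls (636 to 799), narrowly, with a log2 fold change of -0.31 ± 0.22, which was -0.20 without the repaired muscle of rabbit 1.

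GYS1 (ENSOCUG00000000015), the glycogen synthase, had the smallest fold change of the 6 at 1, 4 and 8 weeks, and its widest spread was among repaired muscles. At 1 week repaired muscle read 654, 328, 480 and 565 CPM in rabbits 5, 6, 7 and 8, and controls 723, 644, 566 and 572, so rabbit 6 stood lowest. At 2 weeks rabbits 59 and 62 read 156 and 311 CPM in repaired muscle, while rabbits 60, 61 and 64 read 485, 535 and 558. The 2-week controls were close together at 486 to 542 CPM. At 4 weeks repaired muscle read 503 to 610 CPM and controls 499 to 658, and at 8 weeks repaired muscle read 464 to 678 and controls 519 to 618, so the groups overlapped at both. Its log2 fold changes were -0.33 ± 0.28, -0.45 ± 0.22, -0.07 ± 0.25 and 0.08 ± 0.30 at 1, 2, 4 and 8 weeks, and 0.02 at 2 weeks without the repair libraries of rabbits 59 and 62. At 1 week it was -0.15 without the repaired muscle of rabbit 6. With 1 library left out it ran from -0.13 to 0.004 at 4 weeks (the controls of rabbits 68 and 66) and from -0.03 to 0.27 at 8 weeks (the repaired muscles of rabbits 2 and 1), so its sign turned at both.

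**Figure D1:**
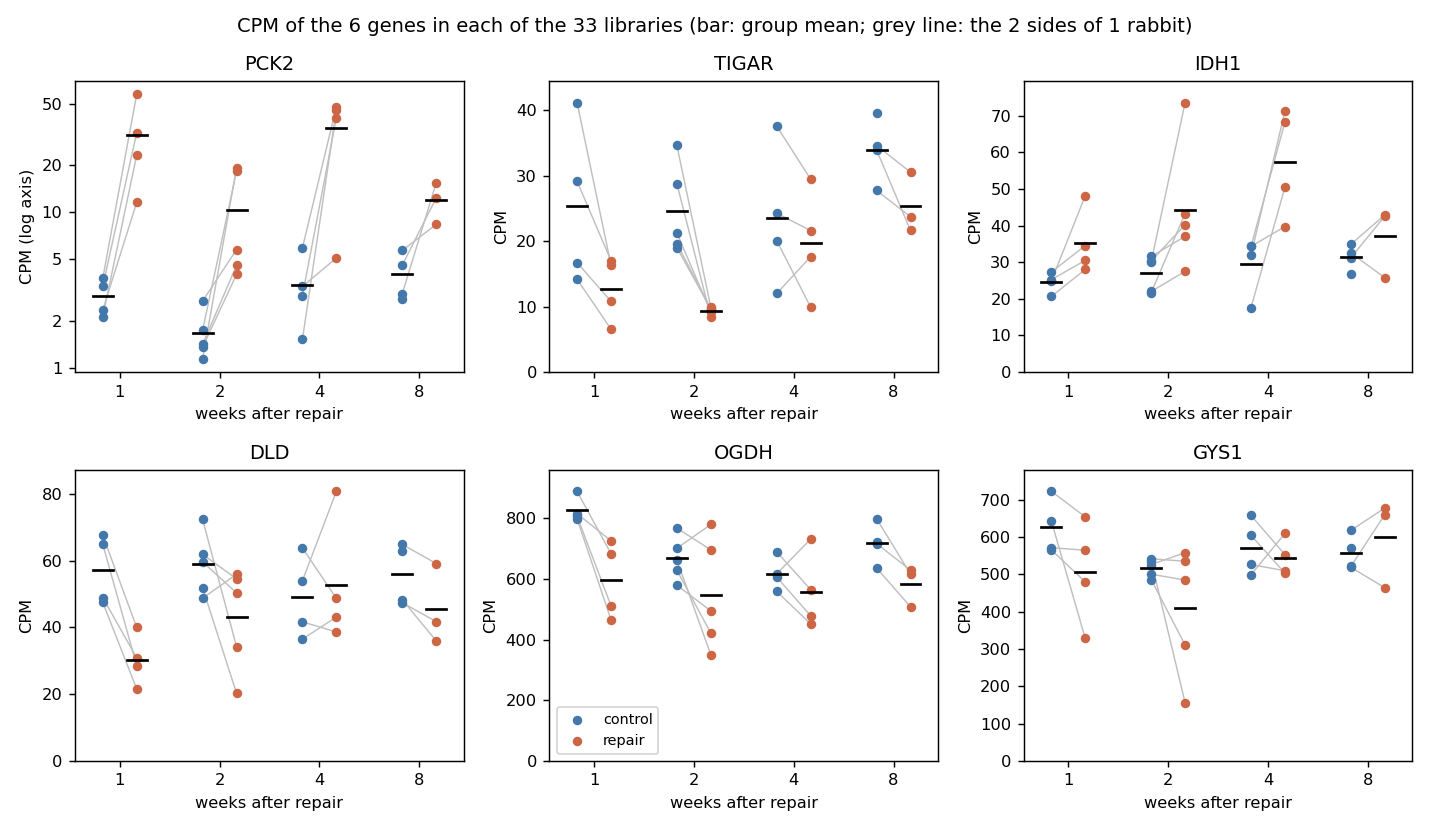
CPM of each of the 6 genes (y axis, logarithmic for PCK2 and linear from 0 for the others) against weeks after repair (x axis), 1 point per library, blue for control and orange for repaired muscle, with a black bar at the group mean and a grey line joining the 2 sides of a rabbit. PCK2 points of repaired muscle lie above their own control in all 16 pairs, and the 5 TIGAR points of repaired muscle at 2 weeks sit together between 8.39 and 9.90 CPM.

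Counted over the 6 members with limma-voom and Benjamini-Hochberg adjustment over all genes, an adjusted p under 0.05 was reached by 3 at 1 week (PCK2, TIGAR and DLD), where 13.7% of all tested genes reached it. At 2 weeks it was reached by 2 (TIGAR and IDH1), where 15.9% of all genes did. At 4 weeks 0 members were called and 0.124% of all genes, and at 8 weeks 0 members and 0.00773% of all genes. Since the members were picked on these differences, nothing is read from the counts. At an unadjusted p under 0.05 stood 2 members and 2058 genes at 4 weeks and 1 member and 397 genes at 8 weeks, and edgeR and DESeq2 each called 2 members at 4 weeks and, at 8 weeks, 0. These tools called 327 and 675 of all genes at 4 weeks, against 16 by limma-voom. With the 2 libraries of a rabbit tied by an estimated correlation, 3 members were called at 1 week, 3 at 2 weeks (PCK2 besides TIGAR and IDH1) and 2 at 4 weeks (PCK2 and IDH1), where 2892, 3257 and 189 of the 12937 genes were called. With the rabbit as a fixed block it was 3, 4 (also DLD) and 2 members and 3406, 4088 and 364 genes. Without the pairing these were 1771, 2053 and 16 genes.

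The repair and control libraries did not overlap for 4 members at 1 week (PCK2, IDH1, DLD and OGDH), which 29.4% of all tested genes also showed. At 2 weeks it was 2 members (PCK2 and TIGAR) and 7.84% of genes, at 4 weeks 1 member (IDH1) and 9.11%, and at 8 weeks 2 members (PCK2 and OGDH) and 7.56%. The calls rested on single libraries in part. Left out 1 at a time at 1 week, PCK2 was called in 8 of 8 fits, DLD in 4 and TIGAR in 3, and at 2 weeks TIGAR was called in 10 of 10 and IDH1 in 3 of 10. At 4 weeks PCK2 and IDH1 were called once, in the fit without the repaired muscle of rabbit 68, which called 281 of all genes. In such fits 593 to 1763 of all genes were called at 1 week and 328 to 3456 at 2 weeks. Since the members were picked on these differences, nothing is read from how often they were called.

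**Figure D2:**
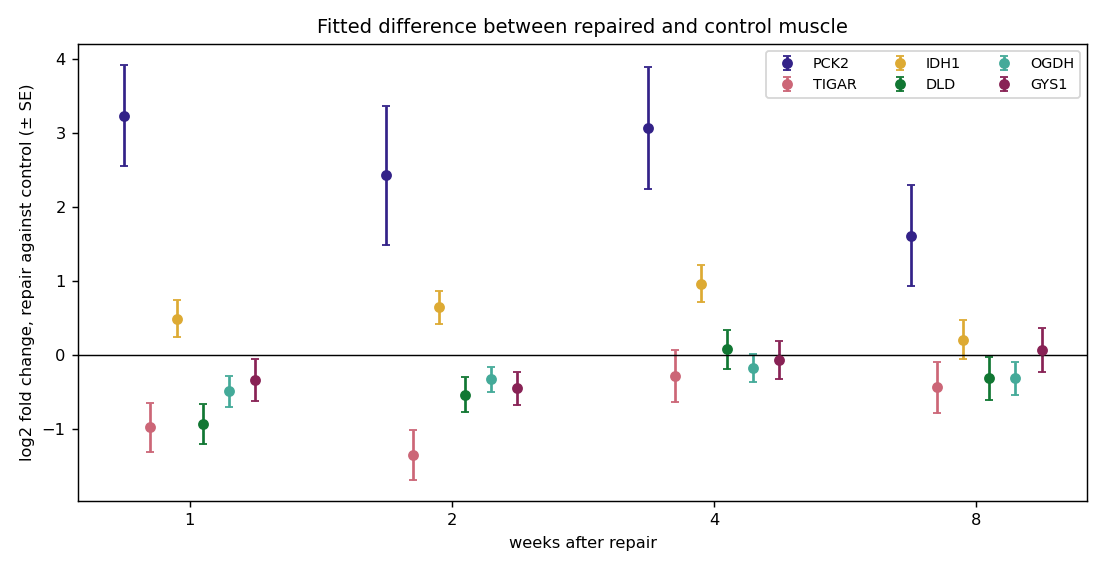
Log2 fold change of repaired against control muscle (y axis, points, with bars of ± 1 SE) for the 6 genes at 1, 2, 4 and 8 weeks after repair (x axis). PCK2 and IDH1 lie above 0 and OGDH and TIGAR below 0 at every week, and PCK2 has both the widest bars and the highest points.

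The change of the difference with time was compared within a series, again as description. From 1 to 8 weeks the PCK2 difference went down by 1.62 ± 0.97 on the log2 scale and that of DLD moved up by 0.62 ± 0.40, from -0.93 to -0.31. With all 34 libraries the change of DLD turned to -0.21. From 2 to 4 weeks the TIGAR difference moved up by 1.07 ± 0.49, from -1.35 to -0.28, and that of DLD by 0.62 ± 0.36. This change of DLD was 0.36 without the repaired muscle of rabbit 59 and 0.048 with sample quality weights. PCK2 moved by 0.64 ± 1.25 in the same interval, less than its error, and by 0.31 to 1.40 with 1 library left out (the control of rabbit 63 and the repaired muscle of rabbit 68). With sample quality weights PCK2 moved by 1.98. Over all 12937 genes, 0 were called for either of these changes, with 683 and 359 at an unadjusted p under 0.05.

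The control values were also in view when the genes were chosen, so their levels over the weeks are given without a test. Between the controls of weeks 1 and 8 and those of weeks 2 and 4, which are also the 2 series, log2 differences ran from -0.01 ± 0.17 for IDH1 to 0.54 ± 0.68 for PCK2, and OGDH was 0.27 ± 0.14 higher in weeks 1 and 8. Between the controls of 8 and 1 weeks the differences ran from -0.21 ± 0.21 (OGDH) to 0.54 ± 0.32 (TIGAR), and between those of 4 and 2 weeks from -0.29 ± 0.25 (DLD) to 0.93 ± 1.12 (PCK2). With 1 control left out, the TIGAR difference of 8 and 1 weeks ran from 0.31 (without rabbit 6) to 0.83 (without rabbit 7). Between 4 and 2 weeks, without rabbit 67, DLD was -0.16 and PCK2 0.61. Over the 17 controls the highest library was 5.16 times the lowest for PCK2, 3.43 times for TIGAR, 1.98 times for IDH1 and DLD, 1.59 times for OGDH and 1.49 times for GYS1. Over the 16 repaired muscles these ratios were 14.4, 4.66, 2.85, 3.99, 2.23 and 4.36, taken over all weeks together. Within each week the coefficient of variation was larger in repaired than in control muscle for DLD and OGDH, whereas for TIGAR it was smaller at 1, 2 and 4 weeks (39, 6.52 and 41.5% against 49.1, 27.6 and 45.5%). It was also smaller in repaired muscle for PCK2 at 8 weeks and for IDH1 and GYS1 at 4 weeks.

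In some rabbits several members stood apart together. Rabbit 59 at 2 weeks had 16.9 times its control for PCK2 and 2.45 times for IDH1, with 0.29 of its control for TIGAR and GYS1, 0.39 for DLD and 0.53 for OGDH. Rabbit 62 of the same week had 10.6 and 2.00 times for PCK2 and IDH1, and 0.51, 0.64, 0.47 and 0.67 of its control for TIGAR, GYS1, DLD and OGDH. The other 3 rabbits of week 2 had 2.14 to 3.22 times for PCK2 and 0.84 to 1.15 times for DLD, while their TIGAR was 0.29 to 0.49 of control, as low as in rabbits 59 and 62. Rabbit 6 at 1 week, with 15.2 times its control for PCK2, also had the lowest GYS1 and OGDH ratios of its week (0.51 and 0.58). Rabbit 68 at 4 weeks went the other way: PCK2 was 1.52 times its control, and DLD, OGDH and GYS1 were 1.496, 1.19 and 1.22 times. The sizes did not go together throughout: rabbit 63 at 4 weeks had the largest PCK2 ratio of all (29.9 times) and 1.99 times for IDH1. Its GYS1 was at 0.97, TIGAR at 0.89, OGDH at 0.79 and DLD at 0.76 of control, the directions of rabbits 59 and 62. Rabbits 1, 5, 7, 8 and 66 also had PCK2 above and DLD, OGDH and GYS1 below their controls. Rabbit 67 had 8.09 times for PCK2 with DLD at 1.18 times. Across libraries, deviations of TIGAR from its group means had r = -0.44 with those of PCK2, 0.39 with DLD, 0.13 with OGDH, 0.05 with GYS1 and 0.02 with IDH1 (33 libraries, description only).

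**Figure D3:**
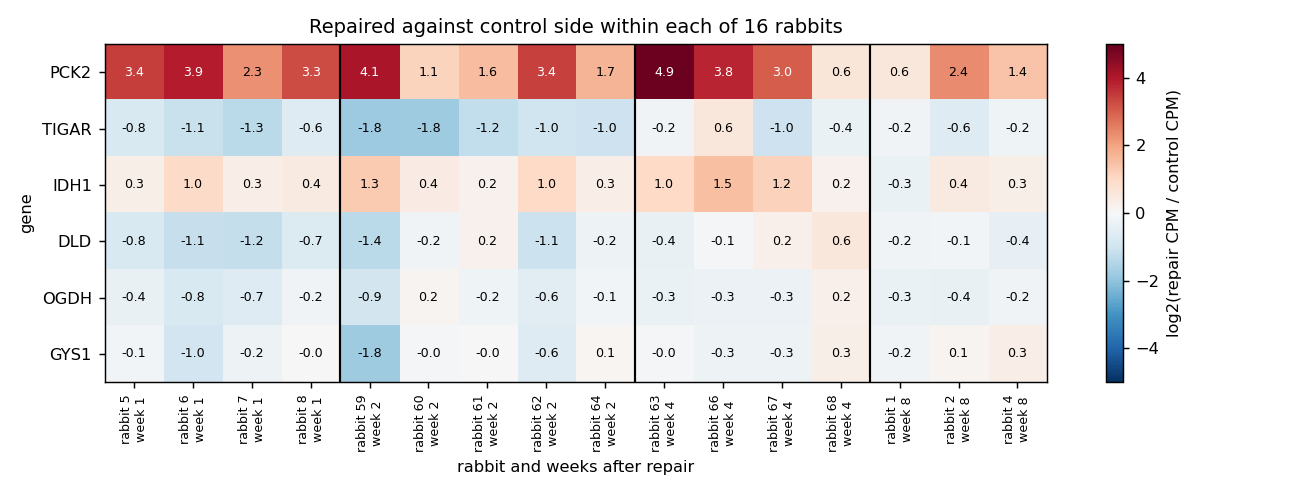
Log2 ratio of repair to control CPM in each of 16 rabbits (columns, grouped by week after repair) for the 6 genes (rows), coloured red where the repaired side is higher and blue where it is lower. The columns of rabbits 6, 59 and 62 combine a deep red PCK2 cell with blue cells for DLD, OGDH and GYS1. These 4 genes lie on the same sides of 0 in rabbits 1, 5, 7, 8, 63 and 66. The column of rabbit 68 is the only one of week 4 with DLD, OGDH and GYS1 all above 0.

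Markers of other cell types also differed between the sides. Of 10 adipocyte markers 3 could be read (ADIPOQ, LIPE and CD36, none at 0 in any library), and their summed CPM was 451 to 1237 in repaired muscle at 1 week against 233 to 361 in controls, 329 to 1070 against 246 to 323 at 2 weeks, 555 to 916 against 148 to 321 at 4 weeks and 356 to 576 against 258 to 380 at 8 weeks. The sums of repaired and control muscle did not overlap at 1, 2 and 4 weeks, and the libraries with the highest sums, rabbits 6 (1237) and 62 (1070), had 57.4 and 18.4 CPM of PCK2. The order was not the same throughout: at 1 week rabbit 8 had the lowest adipocyte sum (451) and the second highest PCK2 (32.5 CPM), and rabbit 7 (673) the lowest PCK2 (11.6 CPM), and at 2 weeks rabbit 61 (597) had the lowest PCK2 of all repaired muscles (3.99 CPM). At 4 weeks rabbits 63, 66 and 67 had sums of 916, 741 and 910, and rabbit 68, the one with low PCK2, had 555.

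Of 16 muscle fibre markers 5 could be read, and their sum was lowest in the repaired muscles of rabbit 6 (6836 CPM), rabbit 59 (9382) and rabbit 62 (14910), against 19580 to 71300 in the 17 controls. These are the 3 libraries with the lowest GYS1, and rabbits 59 and 6 also have the lowest DLD. ATP2A1, with a mean of 26580 CPM in the controls of week 1, weighs most in this sum, and the markers did not move alike. At 1 week the log2 fold change was -1.67 for MYOM2, -1.57 for TNNT3, -1.185 for ATP2A1, -0.38 for CACNA1S and 0.005 for DES. Of 11 fibroblast markers 9 could be read, with sums of 5489 to 19950 CPM in repaired muscle at 1 week against 1562 to 2026 in controls, which did not overlap. At 2 weeks these sums were 63770 CPM in rabbit 59 and 16880 in rabbit 62 against 680 to 2176 in the other 3 repaired muscles of week 2 and 808 to 1420 in the controls. The log2 fold changes of these 9 markers at 1 week ran from 0.61 (DCN) to 3.30 (COL1A1). Of 11 macrophage markers 7 could be read, at 53.7 to 140 CPM in repaired muscle of week 1 against 22.3 to 47.8 in controls, again without overlap. At 2 weeks they summed to 584 CPM in rabbit 59 and 13.2 to 142 in the other 4, and CD163 was at 0 in 1 library and C1QB in 2. The fibroblast and macrophage sums overlapped between the sides at 2, 4 and 8 weeks. Of 5 endothelial markers 3 could be read, at 237 to 323 CPM in repaired and 192 to 256 in control muscle of week 1 and 110 to 629 CPM in repaired and 126 to 145 in control muscle of week 2. The part of these cell types in the values of the 6 genes was not tested.

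**Figure D4:**
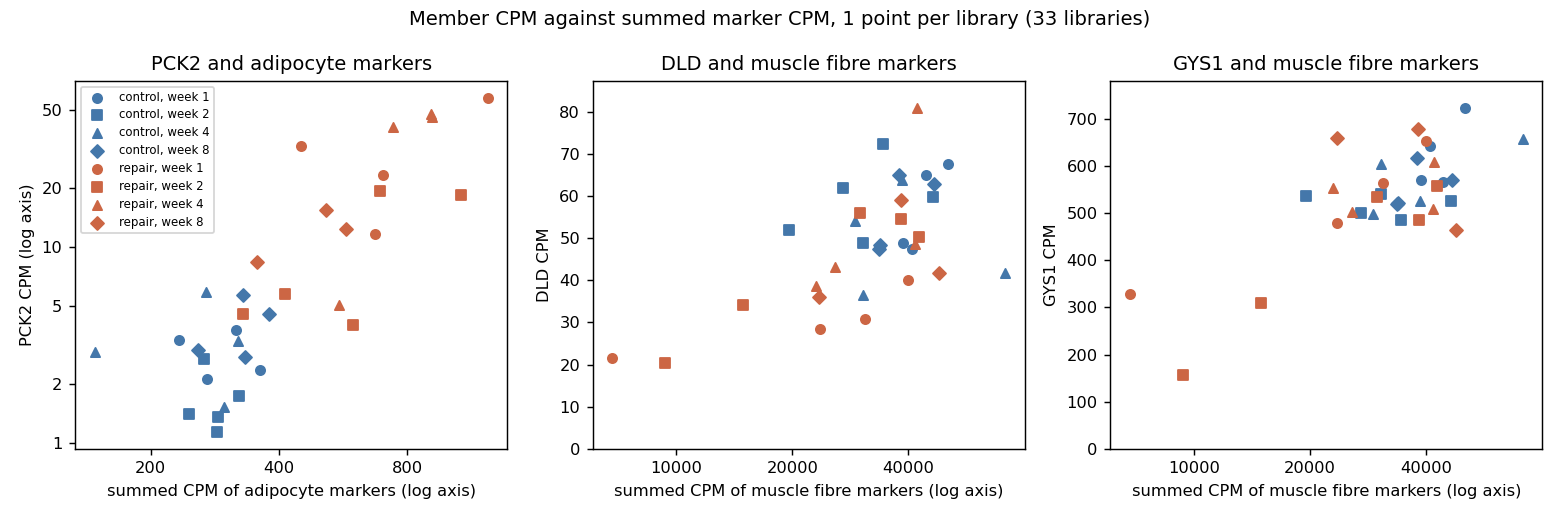
CPM of PCK2 against the summed CPM of 3 adipocyte markers (left, both axes logarithmic), and CPM of DLD (middle) and GYS1 (right) against the summed CPM of 5 muscle fibre markers (logarithmic x axes), 1 point per library, coloured by side and shaped by week. Controls crowd at the lower left of the PCK2 panel, and the 3 repaired muscles with the lowest fibre sums (6836, 9382 and 14910 CPM) have the lowest GYS1 values.

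The genes whose log2 CPM followed each member most closely were listed by Pearson r over the 33 libraries, among 2718 genes with a symbol. These libraries share depth, series and the pairs of sides and mix repaired with control muscle, also within a series, so r is a description. For deviations from the group means, r of the listed genes with their member ran from 0.57 (WDR26 with TIGAR) to 0.92 (MFN1 with DLD). It was 0.90 for PCK2 with SCD, 0.83 with TKT and 0.75 with FAM149A. PCK2 was closest to SCD, the stearoyl-CoA desaturase of fatty acid synthesis (r = 0.94, and 0.98 and 0.97 within the libraries of weeks 1 and 8 and of weeks 2 and 4), then to TKT, the transketolase of the pentose phosphate pathway (r = 0.94), and FAM149A (r = 0.90). SCD had log2 fold changes of 3.22, 3.60, 3.73 and 1.39 at 1, 2, 4 and 8 weeks. DLD was closest to 3 genes of mitochondrial proteins, MFN1, which fuses outer membranes (r = 0.91), NIPSNAP2 (r = 0.90) and AIFM1 (r = 0.90), and these stayed at 0.86 to 0.96 within either series.

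OGDH was closest to UQCRC1, a core subunit of respiratory complex III (r = 0.79), OXA1L, an inner membrane insertase (r = 0.78), and DCUN1D2 (r = 0.77). GYS1 was closest to CCNB1IP1 (r = 0.90), DMRT2 (r = 0.86) and TTC33 (r = 0.85), of which DMRT2 reached only 0.61 within the libraries of weeks 1 and 8. TIGAR was closest to COX10, the haem A farnesyltransferase of cytochrome oxidase assembly (r = 0.81), ANKRD13C (r = 0.79) and WDR26 (r = 0.74). IDH1 was closest to CA5B, a mitochondrial carbonic anhydrase (r = 0.82), GNAI1 (r = 0.82) and DLC1 (r = 0.81), which reached 0.79, 0.58 and 0.72 within the libraries of weeks 1 and 8. Among the members, r was 0.70 for PCK2 and IDH1 and for OGDH and GYS1, 0.64 for DLD and OGDH and -0.67 for PCK2 and DLD.

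The neighbouring steps were read from 7 lists of pathway genes, of which 42 genes had a symbol and passed the filter. At 1 week 5 of the 42 were higher and 5 lower in repaired muscle at an adjusted p under 0.05 (limma-voom), and at 2 weeks 4 were higher and 6 lower. The 10 called at 1 week and the 10 called at 2 weeks, in part other genes, are each 23.8% of the 42. Of all genes 13.7% and 15.9% were called. The lists were chosen with earlier results of these data known and hold only genes with a symbol. The share among all genes with a symbol was not computed, so nothing is read from the difference in shares. With 1 library left out the counts of list genes ran from 3 to 12 and from 1 to 16. The counts over all genes then ran from 593 to 1763 and from 328 to 3456. With all 34 libraries 1 of the 42 was called at either week, and 294 and 412 of all genes. At 4 and 8 weeks limma-voom called 0 of the 42, with 4 and 3 at an unadjusted p under 0.05, while edgeR called 1 and DESeq2 3 at 4 weeks and both 0 at 8 weeks. Tied by rabbit with an estimated correlation, 16 were called at 1 week, 16 at 2 weeks and 2 at 4 weeks. Without the repair libraries of rabbits 59 and 62, 0 were called at 2 weeks, where 16 of all genes were called.

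In the pentose phosphate and NADPH list (5 genes tested of 15), 2 genes were higher and 1 lower at 1 week, and 2 were higher at 2 weeks. TKT at 1 week read 23.6, 74.95, 28.5 and 26.5 CPM in repaired muscle and 6.78 to 11.2 in controls, without overlap (log2 fold change 1.94 ± 0.49, adjusted p 0.0129). At 2 weeks it read 48.6, 13.1, 11.3, 23.0 and 8.20 CPM in rabbits 59, 60, 61, 62 and 64 against 4.42 to 7.19 in controls (1.64 ± 0.56, adjusted p 0.0454), with rabbits 59 and 62 again highest. At 4 weeks rabbits 63, 66, 67 and 68 read 39.3, 39.7, 68.5 and 10.1 CPM, so rabbit 68, inside the control range of 3.50 to 10.7, again stood apart, and TKT missed the threshold (2.24 ± 0.58, adjusted p 0.0844, or 0.0336 with the rabbit correlation). Without that library its log2 fold change was 2.79 and its adjusted p 0.00300. MTHFD1L, the mitochondrial formate maker of one-carbon metabolism, was higher at 1 week (1.76 ± 0.56, adjusted p 0.0373) and 2 weeks (1.74 ± 0.56, adjusted p 0.0357). NNT, the mitochondrial transhydrogenase that makes NADPH, was lower at 1 week (adjusted p 0.0278).

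In the glycogen list (7 tested of 26), 3 genes were lower at 1 week, and 1 was higher and 3 lower at 2 weeks, beside GYS1. UGP2, which makes the UDP-glucose that glycogen synthase uses, read 450, 160, 350 and 327 CPM in repaired muscle at 1 week and 459 to 748 in controls (-0.88 ± 0.25, adjusted p 0.0213). At 2 weeks it read 241, 450, 446, 322 and 483 CPM in repaired muscle against 650 to 900 in controls (-1.04 ± 0.21, adjusted p 0.00578). All 5 repaired muscles of week 2 were thus below all controls for UGP2. For GYS1 those of rabbits 59 and 62 lay well below all controls, and that of rabbit 60 only just (485 against 486 CPM). Without the repair libraries of rabbits 59 and 62 the log2 fold change of UGP2 was -0.77 (adjusted p 0.122). PPP1CB, a catalytic subunit of the phosphatase that acts on glycogen enzymes, was lower at both weeks (adjusted p 0.0104 and 0.0190). PPP1R3A, which holds that phosphatase on glycogen in muscle, was lower at 1 week (-1.12 ± 0.38, adjusted p 0.0495), and GYG1, the primer of glycogen chains, at 2 weeks (adjusted p 0.0319). PYGB, the brain form of glycogen phosphorylase, read 21.8 to 36.3 CPM in repaired muscle at 1 week and 11.2 to 13.8 in controls, without overlap. The main fit did not call it there (1.01 ± 0.36, adjusted p 0.0593), and 0 of the 8 fits that left out 1 library did. Other settings called it: the rabbit correlation (0.0304), the fixed block (0.0188), DESeq2 (0.0498), sample quality weights (0.00112) and the libraries of 1 series (0.00182) or 1 week alone (0.00731). It was higher at 2 weeks (1.10 ± 0.37, adjusted p 0.0436), with 81.8 CPM in rabbit 59 and 10.7 to 32.0 in the other 4 against 8.62 to 13.7 in controls. Without rabbit 59's repair library it was 0.62 with an adjusted p of 0.151. PYGM, the muscle form, had log2 fold changes of -0.63 and -0.15 at 1 and 2 weeks and was not called.

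In the list of pyruvate oxidation, the citric acid cycle and the complexes that use DLD (6 tested of 41), limma-voom called 0 at 1 week (4 at an unadjusted p under 0.05) and 3, all lower, at 2 weeks. These were PDK1, a kinase that switches pyruvate dehydrogenase off (-0.66, adjusted p 0.0467), BCKDHB, a subunit of the branched-chain keto acid dehydrogenase (-0.59, adjusted p 0.0438), and GCSH of the glycine cleavage system (-0.80, adjusted p 0.0396). BCKDHB and GCSH belong to complexes that also use DLD. IDH2, the mitochondrial counterpart of IDH1, had log2 fold changes of -0.59 and -0.51 at these weeks and was not called, where IDH1 had 0.50 and 0.65. The list's median was -0.52, -0.55, 0.02 and -0.11 at 1, 2, 4 and 8 weeks, where that of all genes was 0.05, 0.06, 0.05 and 0.01. The medians of the glycogen list were -0.80, -0.61, -0.26 and -0.11, and those of the glycolysis and gluconeogenesis list -0.65, -0.24, -0.18 and -0.04. The pentose phosphate and NADPH list had -0.06, 0.06, -0.04 and 0.02, and the fatty acid and sterol list 0.13, 0.39, 0.44 and 0.19. The amino acid response list, with 3 tested genes, had 0.88, 0.64, 0.45 and 0.30. These are the values of 1 gene, SLC7A1, which was not called at any week, while PYCR1 was higher and VLDLR below 0 at each week.

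In the glycolysis and gluconeogenesis list (9 tested of 35), LDHD, the D-lactate dehydrogenase, was lower at 1 week (adjusted p 0.0488) and no other gene was called at either week. Of the 7 tested genes of fatty acid and sterol synthesis (13 listed) limma-voom called 0 at any week (2, 2, 1 and 0 at an unadjusted p under 0.05 at 1, 2, 4 and 8 weeks), and ACLY, which makes cytosolic acetyl-CoA, had log2 fold changes of 0.84 and 0.86 at 1 and 2 weeks (adjusted p 0.0730 and 0.0587). Of the 3 tested genes of the amino acid response (26 listed), whose factor ATF4 is known to induce PCK2, PYCR1 of proline synthesis was called at 1 week (2.08 ± 0.66, adjusted p 0.0371) and 2 weeks (2.61 ± 0.86, adjusted p 0.0394). PYCR1 was near the limit of detection: controls of week 2 read 0 to 0.41 CPM, 2 of them 0, so its fitted change there depends on the prior count. Its 1-week call was lost with edgeR (adjusted p 0.0597), with no filter (0.0604) and with all 34 libraries (0.119). The other 2 tested genes were not called: SLC7A1 had log2 fold changes of 0.88 ± 0.51 and 0.64 ± 0.54 at 1 and 2 weeks, while VLDLR, a lipoprotein receptor, was on the other side of 0 at -1.18 ± 0.41 (adjusted p 0.0540) and -0.70 ± 0.32 (adjusted p 0.113). GADD45A, a growth arrest and stress gene on another of the lists, was higher at 1 week (2.08 ± 0.32, adjusted p 0.000479), with repaired muscle at 57.5 to 88.9 CPM and controls at 9.55 to 22.0, without overlap. TIGAR had a log2 fold change of -0.97 in the same muscles.

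**Figure D5:**
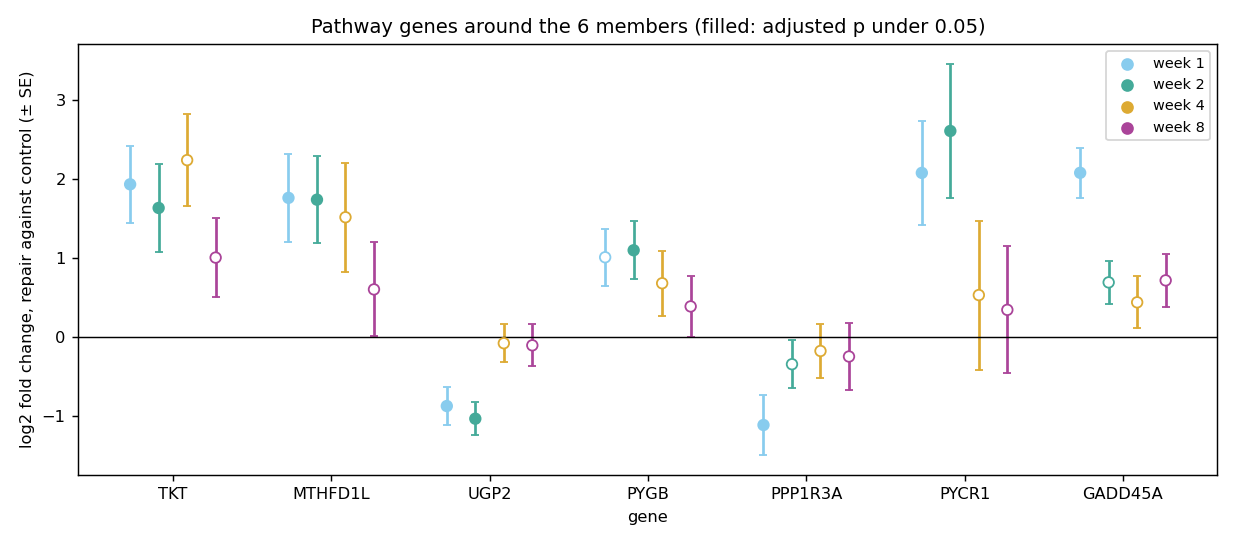
Log2 fold change of repaired against control muscle (y axis, points, with bars of ± 1 SE) at 1, 2, 4 and 8 weeks for 7 pathway genes (x axis), filled where the adjusted p was under 0.05. TKT, MTHFD1L, PYGB, PYCR1 and GADD45A lie above 0 at every week, UGP2 and PPP1R3A lie below it, and no point of weeks 4 and 8 is filled.

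Many of the calls in these lists rested on single libraries. GADD45A and TKT kept their calls at 1 week in each of the 8 fits that left out 1 library of that week, and UGP2 kept its call at 2 weeks in each of 10. With all 34 libraries the 1-week calls of TKT (adjusted p 0.0723), MTHFD1L (0.0794), UGP2 (0.138) and PPP1R3A (0.241) were lost. UGP2 lost its calls at 1 and 2 weeks with the libraries of that week alone (0.0623 and 0.107). With no filter PPP1R3A lost its call at 1 week (0.0569) and PYGB at 2 weeks (0.0502). PYCR1 lost its 2-week call with filterByExpr (0.0523) and with CPM over 1 in at least 5 libraries (0.0642). The 2-week calls of TKT, PYCR1, PYGB and MTHFD1L were each lost with all 34 libraries, with sample quality weights, and with the libraries of 1 series or 1 week alone. GADD45A at 2 weeks was called with the rabbit correlation (adjusted p 0.0419) and the fixed block (0.0268) and not without them. At 1 week UGP2 lost its call without the controls of rabbit 5 or 7 (adjusted p 0.0670 and 0.0787) or the repaired muscle of rabbit 6 (0.0917). MTHFD1L and PYCR1 stayed called at 1 week in 2 of 8 fits, those without the repaired muscle of rabbit 5 or 8, and PPP1R3A in 1, that without the repaired muscle of rabbit 5. At 2 weeks TKT, PYCR1 and PYGB stayed called in 3 of 10 fits, those without the repaired muscle of rabbit 60, 61 or 64, and MTHFD1L in 4, these and the one without the control of rabbit 61. Without the repaired muscle of rabbit 59 the adjusted p was 0.176 for TKT, 0.162 for PYCR1 and 0.108 for MTHFD1L.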

How the data were processed

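Polyadenylated RNA was sequenced as stranded libraries of single reads. The authors aligned the reads to the Ensembl rabbit genome with STAR, and RSEM gave the deposited expected counts, unscaled (8.35% of values are not whole). Time codes were taken as weeks torn, then weeks after repair. Symbols are those of human orthologs in the study's supplementary tables, held in part (3292 tested genes), so lists cover only these genes. The build's genome was not used here.

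Genes with CPM over 1 in at least 1 of 33 libraries were kept (12937 of 23669), scaled by TMM and fitted by limma-voom (R 4.3.3, limma 3.58.1, edgeR 4.0.16) with 8 groups, Benjamini-Hochberg adjustment and a threshold of 0.05. CPM use the TMM-scaled total and no gene length, so levels of different genes were not compared. Counts were rounded for edgeR quasi-likelihood and DESeq2 1.42.0. The shoulders of a rabbit form a pair: their residuals correlated at 0.04 to 0.38 (16 rabbits, median 0.24, over 0.1 in 15), and duplicateCorrelation gave 0.17. No library repeated another (highest r 0.98).

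Named pathway genes were called with an absolute log2 fold change above 1 at any week (at most 6 per list); other genes and the values by rabbit were picked after values were seen. The members and lists were chosen with earlier results of these data known. Alternatives were other scaling, filters, tools, pairings, weights and sets of libraries. Some results of 1 list are not reported here.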

Additional observations from a re-analysis of the deposited data

Results flagged for a closer look

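Of 42 groups of 4 or 5 values of the 6 genes, 2 held a value far from the rest of its group, where chance alone gives about 1 in 20. PCK2 read 5.09 CPM in the repaired muscle of rabbit 68 at 4 weeks, where the other 3 repaired muscles read 40.7 to 47.7. IDH1 read 17.6 CPM in the control muscle of rabbit 66 at 4 weeks, where the other 3 controls read 31.9 to 34.3. The left-out repair library of rabbit 3 at 8 weeks held 78.6 CPM of PCK2 and 1040 CPM of GYS1, above the 8-week controls scaled with it (2.72 to 5.54 and 505 to 602 CPM), and its DLD was 2.18 CPM where those controls had 46.2 to 63.3. This library had the lowest total of all 34, and what set these values was not tested.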

How the results depend on the processing

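With all 34 libraries the number of members called was 1 at 1 week and 1 at 2 weeks, that of pathway genes 1 and 1, and that of all genes 294, 412 and 5 at 1, 2 and 4 weeks and 428 between the 2 sets of controls (1999 without that library). The 8-week log2 fold changes then were 2.12 (PCK2), -0.73 (TIGAR), -0.27 (IDH1, which turned from 0.21), -1.15 (DLD), -0.48 (OGDH) and 0.32 (GYS1), and the change from 1 to 8 weeks was -0.77 for IDH1 and -0.21 for DLD, which turned from 0.62. Without the repair libraries of rabbits 59 and 62 (chosen after seeing the data), the 2-week counts were 0 members, 0 pathway genes and 16 genes, with 2 fewer samples in the group. PCK2 was then 1.53, while TIGAR was -1.39 against -1.35 with them. With no filter, members called at 2 weeks were 1, where the main fit called 2 members and 2053 of all genes. All genes called with no filter were 51 at 4 weeks, 3 at 8 and 4734 between controls. With CPM over 1 in at least 5 libraries, 0 genes were called at 8 weeks.

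edgeR called 3716 and 327 genes at 2 and 4 weeks, with 2 members and 1 pathway gene at 4 weeks. DESeq2 called 16 pathway genes at 1 week, 4033, 675 and 5 genes at 2, 4 and 8 weeks, and 2 members and 3 pathway genes at 4 weeks. With the rabbit as a fixed replicate block, pathway genes called were 19, 18 and 2 at 1, 2 and 4 weeks, members 4 and 2 at 2 and 4 weeks, and all genes 3406, 4088 and 364. With the rabbit correlation as the block, the values were 16, 16 and 2 pathway genes, members 3 and 2 at 2 and 4 weeks, and 2892, 3257 and 189 genes. With that block and the filter at 5 libraries they were 16 and 3 pathway genes at 1 and 4 weeks, 2 members at 4 weeks, and 2925, 218 and 0 genes at 1, 4 and 8 weeks. Pairing left the member counts at 1 and 8 weeks as they were.

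Sample quality weights gave 21, 1, 2 and 2 pathway genes, members 1 and 2 at 2 and 4 weeks, and 4179, 816, 1032 and 84 genes at 1, 2, 4 and 8 weeks and 4008 between controls. They also gave a change from 2 to 4 weeks of 1.98 for PCK2 and 0.048 for DLD. The control difference of OGDH was 0.27 with and without these weights, and no test of it is read. The libraries of 1 series alone gave 20 and 1 pathway genes at 1 and 2 weeks, 1 member at 2 weeks, and 3793, 124 and 1 genes at 1, 2 and 4 weeks. Those of 1 week alone gave 18 and 0 pathway genes, 1 member at 2 weeks, and 2952, 5 and 0 genes.

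With 1 library left out at a time, members called ran from 1 to 3 at 1 week, 1 to 3 at 2 weeks and 0 to 2 at 4 weeks, pathway genes from 3 to 12, 1 to 16 and 0 to 1, and all genes from 593 to 1763, 328 to 3456, 2 to 281 and 0 to 4 at 1, 2, 4 and 8 weeks. The cause of these differences was not tested. Precision is limited by 3 to 5 muscles per group and, for PCK2 in controls and PYCR1, by low counts.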
